A study of Homo sapiens with 7 samples.

Results

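A set of 10 genes of TGF-beta signalling was followed in HCT116 cells that lack DROSHA, after transfection with miR-148a-3p or with a control miRNA. They were chosen by gene symbol, with earlier results of these data known. All 10 were found among the 15659 symbols counted in the series. They are the receptors TGFBR1 and TGFBR2, the transducers SMAD2, SMAD3 and SMAD4, the inhibitory SMAD7, and the nuclear corepressors SKI, SKIL, TGIF1 and TGIF2. HCT116 is a human colorectal carcinoma line. The DROSHA knockout was present in both groups, so the comparison is of one transfected miRNA with another in cells that make few canonical microRNAs of their own. There were 3 control miRNA libraries and 3 miR-148a-3p libraries, made with oligo-dT primers from 500 ng of total RNA taken 48 h after transfection. The labels do not say whether the knockout line is 1 clone, nor do they give the sequence of the control miRNA.

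In this pathway a TGF-beta ligand binds TGFBR2, which recruits and phosphorylates TGFBR1, and TGFBR1 then phosphorylates SMAD2 and SMAD3. These pair with SMAD4, enter the nucleus and bind DNA beside other transcription factors. SMAD7 blocks and helps to degrade the active receptor, SKI and SKIL (also called SnoN) bind the SMAD complex and silence its targets, and TGIF1 and TGIF2 are homeodomain repressors that bind SMAD2 and SMAD3. SMAD7 and SKIL are themselves transcribed in answer to the signal, which makes them feedback inhibitors. In the colon the pathway restrains epithelial growth. HCT116 is mismatch-repair deficient and is known for a frameshift in the adenine tract of the TGFBR2 coding sequence, which cuts off the receptor's kinase.

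The transfected miRNA is shown because its seed, bases 2 to 8 from the 5′ end, sets which messenger RNAs it can pair with. In RefSeq (GRCh38), it lies on the minus strand at chr7:25949922-25949943, and the capitals mark the seed.

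miR-148a-3p: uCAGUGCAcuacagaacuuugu

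Transcripts of the 10 genes were not searched for its seed match, TGCACTG. The promoters of SMAD7 and SKIL, the feedback inhibitors, are shown because both genes were lower in all 3 miR-148a-3p libraries than in any control library. Each stretch runs from 250 bases before to 50 bases after the first start site that RefSeq lists, is written 5′ to 3′ on the gene's strand, and has every AGAC and every GTCT (the same letters read on the other strand) in capitals, the short core that SMAD3 and SMAD4 recognise. SMAD7 is at chr18:48950916-48951215 on the minus strand and SKIL at chr3:170357465-170357764 on the plus strand.

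SMAD7: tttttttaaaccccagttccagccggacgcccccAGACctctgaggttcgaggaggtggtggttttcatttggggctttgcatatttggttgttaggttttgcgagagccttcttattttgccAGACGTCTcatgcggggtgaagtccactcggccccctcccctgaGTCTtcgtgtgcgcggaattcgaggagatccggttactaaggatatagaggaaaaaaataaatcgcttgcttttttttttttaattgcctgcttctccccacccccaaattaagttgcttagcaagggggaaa

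SKIL: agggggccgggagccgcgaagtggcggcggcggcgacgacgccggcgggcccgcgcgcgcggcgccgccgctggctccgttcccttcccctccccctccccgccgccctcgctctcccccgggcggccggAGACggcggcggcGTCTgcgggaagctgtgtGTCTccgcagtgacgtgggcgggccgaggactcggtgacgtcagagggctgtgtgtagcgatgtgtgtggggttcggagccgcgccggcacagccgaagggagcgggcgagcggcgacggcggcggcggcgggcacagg

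The SMAD7 window held 4 copies of this core, and the run AGACGTCT holds a pair of them end to end. The SKIL window held 3. Of 27305 promoter windows of the same length, 1 per gene, 84.1% held at least 1 copy, 30.7% at least 3 and 13.8% at least 4, with a median of 2. The longer form CAGAC, read on the other strand as GTCTG, contains the core. It was found 2 times in the SMAD7 window and 1 time in that of SKIL. Of all windows 45% held at least 1 copy of it. The palindrome GTCTAGAC was in neither of these windows, and in 0.201% of all windows. RefSeq lists 3 windows for SMAD7, of which only the first was searched, and 1 for SKIL. In the first window of each of the 9 members that have one, TGIF1 also had 3 copies of AGAC, SMAD2 had 2, TGFBR1, TGFBR2 and SMAD3 had 1 each, and SMAD4 and TGIF2 had 0. The longer form was found 2 times in the TGIF1 window and 1 time each in those of TGFBR1 and SMAD3. It was found 0 times in those of TGFBR2, SMAD2, SMAD4 and TGIF2. These are matches of letters, and binding was not measured.

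The libraries held 630142 to 1564125 counts over 12448 to 13849 genes. Keratin 18 dominated the colon epithelium markers, whose summed level was 1840 to 2079 CPM (counts scaled to library size with TMM factors) in the control libraries, against 1736 to 1921 CPM with miR-148a-3p. Of the 16 epithelial markers 12 were counted and 8 tested, while KRT20, CDX1, MUC2 and PHGR1 were at 0 in every library. LGALS4, VIL1 and FABP1 had at most 1, 2 and 4 reads in any library. CDH1 had 11, 6 and 2 reads in the control libraries, against 11, 13 and 1 with miR-148a-3p. Of 13 blood cell markers 4 were counted, summing to 7, 7 and 8 counts and to 24, 12 and 2 counts, with PTPRC, CD14 and LYZ at 0. Of 12 fibroblast and endothelial markers 6 were counted, at 59.5 to 91.5 CPM in the control libraries, against 55.6 to 100.4 CPM with miR-148a-3p, most of it COL1A1 and ACTA2. Their part in the results was not tested. Control replicate 1 (−31.4) and miR-148a-3p replicate 3 (34.2) lay at opposite ends of the first principal component (29.8% of the variance), with the other 4 libraries between −8.29 and 13.1.

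None of the 10 genes passed the test over all genes. With edgeR 1 of 8921 genes tested passed an adjusted p of 0.05, MORF4L1, which was lower and is no member. That is 0.0112% of genes in either direction. All 10 members cleared the filter on low counts. At an unadjusted p below 0.05, edgeR gave 5 of the 10 (SMAD7, SKIL and TGFBR2 lower, SMAD3 and TGIF1 higher), against 6.79% of all genes tested (3.4% lower and 3.4% higher). DESeq2 gave 3 of the 10 (5.01% of all genes), namely SKIL, SMAD3 and SMAD7, and limma-voom 4 (6.86% of all genes), with TGIF1 added. With 1 library left out, edgeR gave 3 of the 10 without control replicate 1 (8% of all genes), 4 without control replicate 2 (7.37%), 3 without control replicate 3 (6.61%), 4 without miR-148a-3p replicate 1 (7.98%), 2 without miR-148a-3p replicate 2 (5.04%) and 2 without miR-148a-3p replicate 3 (4.32%). With the replicate number as a block it gave the same 5 (8.61%). The groups did not overlap for 4 members, SMAD7 and SKIL (lower) and SMAD3 and TGIF1 (higher), where 12.8% of all genes tested did not overlap (6.59% lower and 6.22% higher). Both shares are above the background, but these genes were proposed with results of these data known, so the counts describe them and support nothing further. In all, 6 members had a lower fitted value and 4 a higher one, with a median log2 fold change of −0.35 beside −0.0039 for all genes tested.

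**Figure D1:**
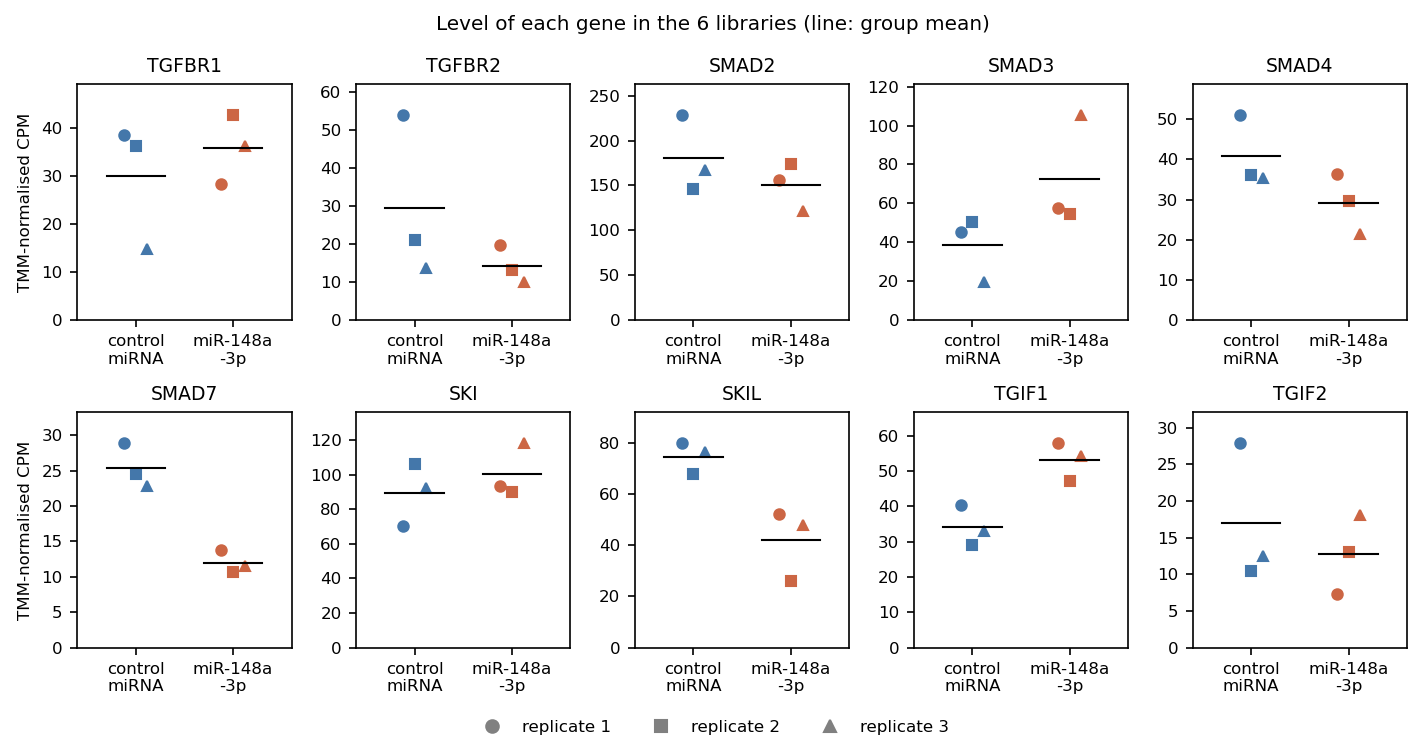
Level of each gene (TMM-normalised CPM, linear axis from 0) in the 3 control miRNA libraries (blue) and the 3 miR-148a-3p libraries (orange), with marker shapes for the replicate numbers and lines for the group means. SMAD7 and SKIL sit lower and SMAD3 and TGIF1 higher in all 3 miR-148a-3p libraries, while the groups of the other 6 genes overlap.

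For both receptors the groups overlap. TGFBR2, the ligand-binding receptor kinase (chromosome 3, 30606356 to 30694142), was counted with 56, 18 and 12 reads in the control libraries, against 30, 11 and 6 with miR-148a-3p, which is 53.9, 21.0 and 13.7 CPM against 19.8, 13.0 and 9.88 CPM. Control replicate 1 alone stands far above the rest. The means were 29.5 ± 21.5 and 14.2 ± 5.06 CPM (SD, n = 3), a log2 fold change of −0.996 (SE 0.46, 95% interval −1.94 to −0.05, edgeR adjusted p = 0.725). Without control replicate 1 the log2 fold change was −0.22 (SE 0.55).

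TGFBR1, the signalling receptor kinase that TGFBR2 activates (chromosome 9, 99103647 to 99154192), had 38.5, 36.2 and 14.8 CPM in the control libraries, against 28.3, 42.6 and 36.2 CPM with miR-148a-3p. Its groups overlap, with control replicate 3 the lowest library. The log2 fold change was 0.23 (SE 0.36, 95% interval −0.51 to 0.97), and it was −0.08 (SE 0.36) without control replicate 3. The means were 29.8 ± 13.1 and 35.7 ± 7.14 CPM (SD, n = 3). In the control libraries there were 1.4, 0.581 and 0.923 TGFBR2 reads for each TGFBR1 read.

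Among the transducers, SMAD3 was higher in every miR-148a-3p library than in any control library, while the groups of SMAD2 and SMAD4 overlap. SMAD3 (chromosome 15, 67065602 to 67195169) is the receptor-activated SMAD that binds DNA directly. It was counted with 47, 43 and 17 reads in the control libraries, against 87, 46 and 64 with miR-148a-3p, which is 45.3, 50.2 and 19.3 CPM against 57.3, 54.4 and 105 CPM. The groups do not overlap, but the highest control library and the lowest miR-148a-3p library are only a few CPM apart, and the distance between the means comes largely from the low control replicate 3 and the high miR-148a-3p replicate 3. The means were 38.3 ± 16.6 and 72.4 ± 28.6 CPM (SD, n = 3), a ratio of 1.89 and a log2 fold change of 0.88 (SE 0.33, 95% interval 0.21 to 1.54, edgeR adjusted p = 0.593). It was 0.57 (SE 0.33) without control replicate 3 and 0.54 (SE 0.35) without miR-148a-3p replicate 3.

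SMAD2, the other receptor-activated SMAD of the TGF-beta branch (chromosome 18, 47808957 to 47930872), was the most abundant member, with 228, 146 and 167 CPM in the control libraries, against 156, 174 and 122 CPM with miR-148a-3p. The groups overlap. Its log2 fold change was −0.26 (SE 0.21, 95% interval −0.69 to 0.17), and −0.05 (SE 0.21) without control replicate 1. SMAD4, the partner that all receptor-activated SMADs share (chromosome 18, 51030213 to 51085042), had 51.0, 36.2 and 35.3 CPM against 36.3, 29.6 and 21.4 CPM. These groups overlap by a narrow margin, and the log2 fold change was −0.45 (SE 0.33, 95% interval −1.12 to 0.21). Without control replicate 1 it was −0.25 (SE 0.37).

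SMAD7 had the smallest spread within groups of the 10 genes, relative to Poisson counting. This inhibitory SMAD (chromosome 18, 48919853 to 48950965) was counted with 30, 21 and 20 reads in the control libraries, against 21, 9 and 7 with miR-148a-3p, which is 28.9, 24.5 and 22.8 CPM against 13.8, 10.6 and 11.5 CPM. All 3 miR-148a-3p libraries were lower than any control library, and the spread within the groups was 0.314 times that of Poisson counting. A value below 1 is less than counting alone gives on average, so these few libraries may understate the spread. The means were 25.4 ± 3.17 and 12.005 ± 1.65 CPM (SD, n = 3), a ratio of 0.473 and a log2 fold change of −1.05 (SE 0.43, 95% interval −1.93 to −0.17, edgeR adjusted p = 0.659). With any 1 library left out it lay between −1.19 and −0.95, and after thinning to the smallest library it was −1.32 (SE 0.49). It was −0.95 (SE 0.52) without control replicate 1 and −0.97 (SE 0.47) without miR-148a-3p replicate 2. In neither of these fits was the edgeR unadjusted p of SMAD7 below 0.05. The SMAD7 counts are small, and edgeR borrows the spread of other genes of like level when it sets the SE.

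SKIL, the feedback corepressor (chromosome 3, 170357715 to 170396849), had the smallest p of the members, at rank 120 of the 8921 genes. It was counted with 83, 58 and 67 reads in the control libraries, against 79, 22 and 29 with miR-148a-3p, which is 79.9, 67.7 and 76.2 CPM against 52.1, 26.0 and 47.7 CPM. The groups do not overlap, and miR-148a-3p replicate 2 is the lowest library. The means were 74.6 ± 6.29 and 41.9 ± 13.96 CPM (SD, n = 3), a ratio of 0.562 and a log2 fold change of −0.81 (SE 0.28, 95% interval −1.39 to −0.24, edgeR adjusted p = 0.511). It was −0.57 (SE 0.29) without miR-148a-3p replicate 2.

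SKI, the related corepressor first found as a viral oncogene's cellular form (chromosome 1, 2228319 to 2310213), did not share this pattern. Its levels were 70.3, 106 and 92.1 CPM in the control libraries, against 93.6, 89.9 and 119 CPM with miR-148a-3p. The groups overlap, with a log2 fold change of 0.16 (SE 0.23, 95% interval −0.32 to 0.64). It was 0.0048 without control replicate 1, 0.30 without control replicate 2 and 0.043 without miR-148a-3p replicate 3.

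TGIF1, a homeodomain repressor (chromosome 18, 3412009 to 3459978), was counted with 42, 25 and 29 reads in the control libraries, against 88, 40 and 33 with miR-148a-3p, which is 40.5, 29.2 and 33.0 CPM against 58.0, 47.3 and 54.3 CPM. All 3 miR-148a-3p libraries were higher than any control library. The spread within groups was 0.742 times that of Poisson counting, again below what counting alone gives on average. The means were 34.2 ± 5.74 and 53.2 ± 5.42 CPM (SD, n = 3), a ratio of 1.56 and a log2 fold change of 0.64 (SE 0.29, 95% interval 0.04 to 1.24, edgeR adjusted p = 0.725). With any 1 library left out it lay between 0.53 and 0.78.

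TGIF2, its shorter relative (chromosome 20, 36573464 to 36593950), was the least abundant member in the control group. It was counted with 29, 9 and 11 reads in the control libraries, against 11, 11 and 11 with miR-148a-3p, or 27.9, 10.5 and 12.5 CPM against 7.25, 13.0 and 18.1 CPM. The groups overlap, and control replicate 1 is again the high library. The log2 fold change was −0.52 (SE 0.53, 95% interval −1.59 to 0.56) and became 0.07 (SE 0.67) without control replicate 1. The readthrough gene TGIF2-RAB5IF, which spans TGIF2, had 0, 0 and 3 reads and 7, 5 and 0 reads. With these added the log2 fold change was −0.21 (SE 0.47).

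**Figure D2:**
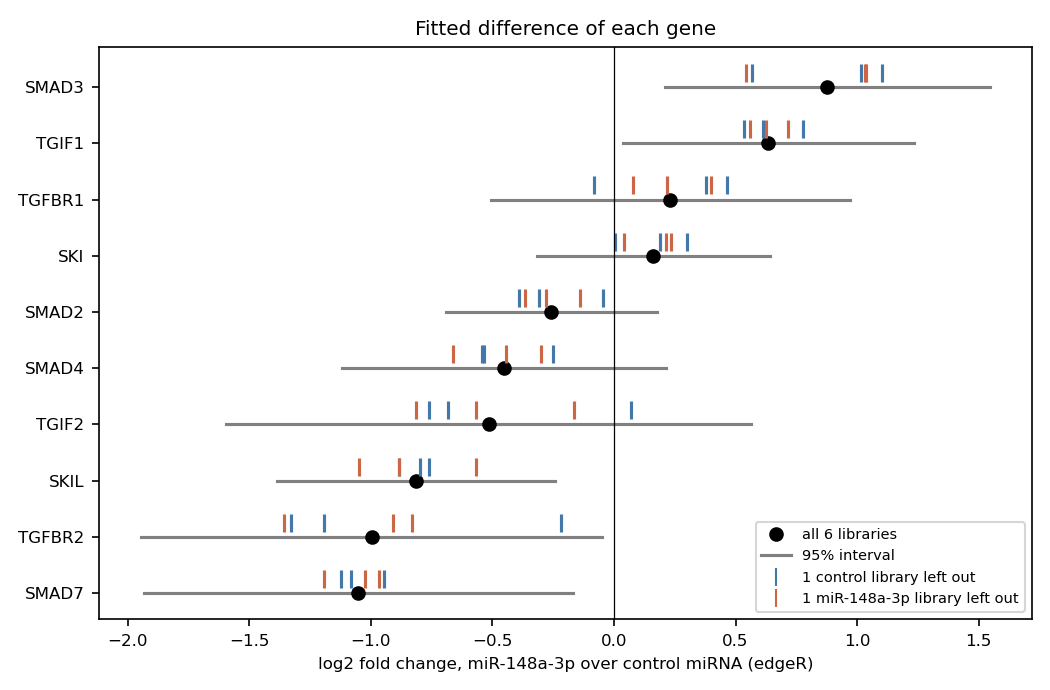
Fitted log2 fold change of each gene, miR-148a-3p over control miRNA, with its 95% interval (grey line) and the value with each single library left out (ticks, blue for control and orange for miR-148a-3p libraries). The ticks of SMAD7 stay between −1.19 and −0.95, whereas those of TGFBR2 reach −0.22 and those of TGIF2 0.07 when control replicate 1 is left out.

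Control replicate 1 was the highest of the 6 libraries for 6 members (TGFBR2, SMAD2, SMAD4, SMAD7, SKIL and TGIF2), which are the 6 with a lower fitted value. Relative to the mean of each gene on the log2(CPM + 1) scale it stood at 1.49 for TGFBR2 and 0.98 for TGIF2, against 0.54 for SKIL and 0.70 for SMAD7. Only for SMAD7 and SKIL among these 6 were the other 2 control libraries also above every miR-148a-3p library. The spread within groups, as a multiple of Poisson counting, was 8.05 for TGFBR2, 7.56 for SMAD3, 6.38 for SMAD2, 3.75 for TGIF2, 3.41 for TGFBR1, 2.63 for SKI, 2.41 for SKIL and 1.72 for SMAD4. The part of this library in the differences was not tested beyond leaving it out.

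**Figure D3:**
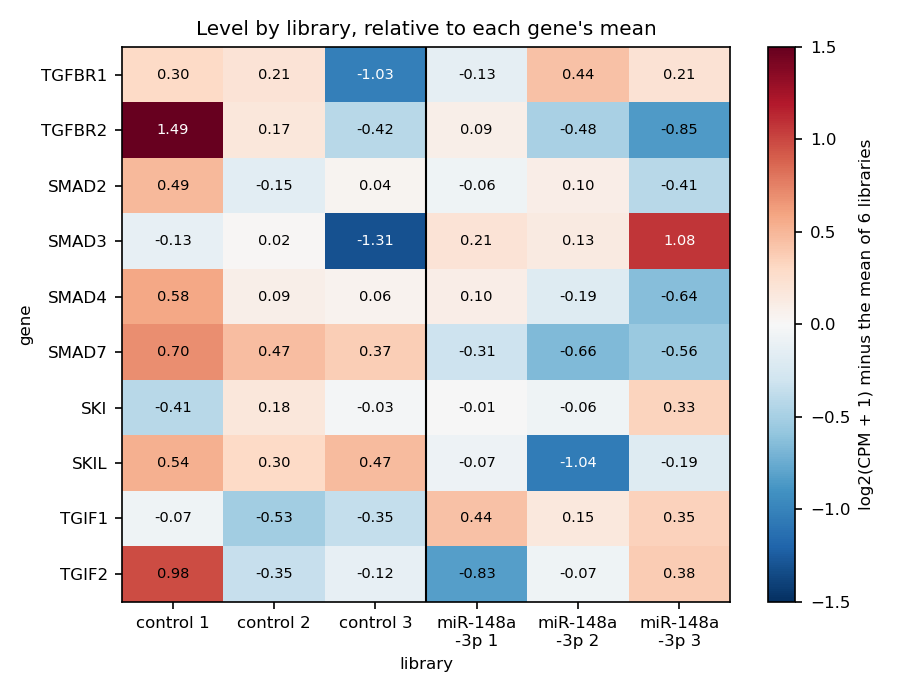
Level of each gene in each library as log2(CPM + 1) minus the mean of the 6 libraries (red higher, blue lower, control libraries left of the black line). Control replicate 1 reaches 1.49 for TGFBR2 and 0.98 for TGIF2, while SMAD7 is positive in all 3 control libraries and negative in all 3 miR-148a-3p libraries.

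The libraries were primed with oligo-dT, and whether their counts scale with transcript length was not tested. CPM levels of different genes are therefore set beside each other only as counted, within the limits of priming and counting. In the control group SMAD2 (180 ± 42.8 CPM) stood above SKI (89.5 ± 18.1 CPM), and every SMAD2 library was above every SKI library. SKI and SKIL (74.6 ± 6.29 CPM) overlapped, and SKIL was separate from SMAD4 (40.8 ± 8.86 CPM). From SMAD4 through SMAD3, TGIF1, TGFBR1, TGFBR2 and SMAD7 to TGIF2 (17.0 ± 9.54 CPM), each gene overlapped with the next. SMAD2 was above 87.7% of the tested genes in the control group, and TGIF2 above 13.99%.

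With miR-148a-3p the order of means was SMAD2 (150 ± 26.4 CPM), SKI (101 ± 15.6 CPM), SMAD3, TGIF1, SKIL, TGFBR1, SMAD4 (29.1 ± 7.44 CPM), TGFBR2, TGIF2 (12.8 ± 5.43 CPM) and SMAD7. Neighbours were separate only between SMAD2 and SKI and between SMAD4 and TGFBR2. SMAD3 stood at place 5 in the control group and 3 here, and SKIL at 3 and 5. In bulk libraries a lower level in every cell and a change in some of the cells cannot be told apart.

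Ratios within a library, which no scaling factor touches, were taken for 5 pairs of genes as log2 of the counts plus 0.5. With 3 libraries against 3, the smallest two-sided p an exact permutation test can give is 0.1, so no pair could pass 0.05, and the pairs were set with earlier results known. The ratio SMAD7/SMAD3, an inhibitor over a transducer, was −0.64, −1.02 and 0.23 in the control libraries, against −2.02, −2.29 and −3.10 with miR-148a-3p. The groups do not overlap, and the difference of means was −1.998 (exact permutation p = 0.1, adjusted p = 0.167 over the 5 ratios). In reads, SMAD7 had 0.638, 0.488 and 1.18 for each SMAD3 read in the control libraries, against 0.241, 0.196 and 0.109 with miR-148a-3p.

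SKIL/SKI, the paralogous corepressors, was 0.18, −0.65 and −0.27 against −0.84, −1.77 and −1.30, a difference of −1.06 with no overlap (exact permutation p = 0.1, adjusted p = 0.167). TGIF1/TGIF2 was 0.53, 1.42 and 1.36 against 2.94, 1.82 and 1.54, a difference of 1.00 with no overlap (exact permutation p = 0.1, adjusted p = 0.167). It was 0.71 without control replicate 1 and 0.58 without miR-148a-3p replicate 1. This ratio leaves out the reads of TGIF2-RAB5IF. Control replicate 2 had 25 TGIF1 reads, 9 of TGIF2 and 0 of the readthrough gene, and miR-148a-3p replicate 2 had 40, 11 and 5. With the readthrough reads added to TGIF2, these libraries would change order and the groups would overlap. SMAD3/SMAD2 was −2.32, −1.53 and −3.08 against −1.43, −1.67 and −0.21, with overlap and a difference of 1.21 (exact permutation p = 0.2). Leaving out miR-148a-3p replicate 3 gave 0.76, and leaving out control replicate 3 gave 0.82. TGFBR2/TGFBR1 was 0.48, −0.77 and −0.11 against −0.51, −1.67 and −1.79, also with overlap and a difference of −1.19 (exact permutation p = 0.2).

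**Figure D4:**
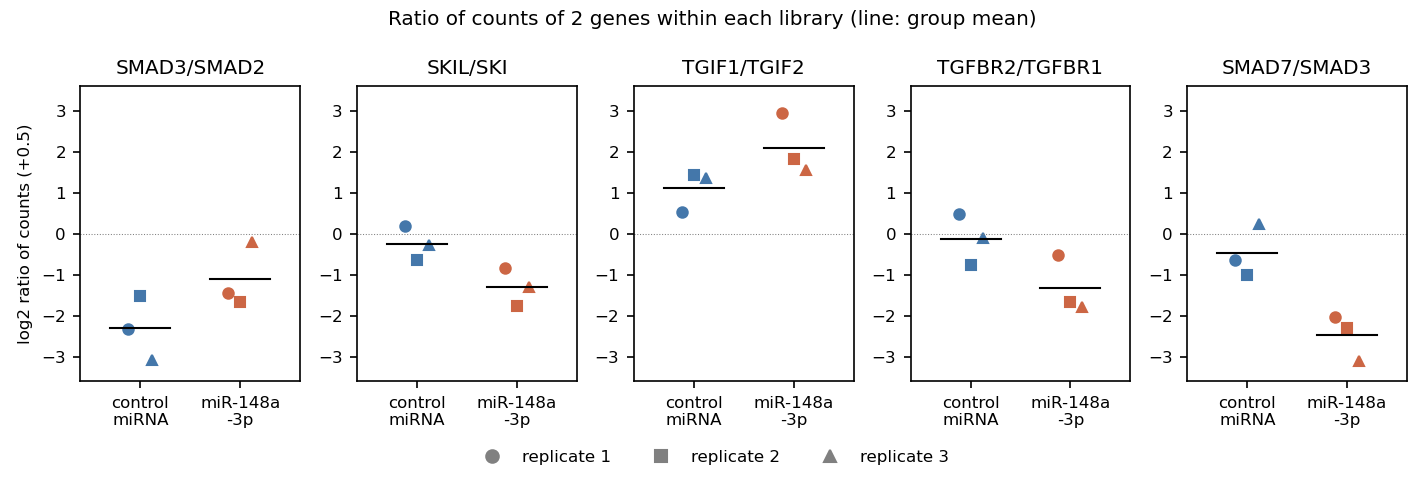
Log2 ratio of the counts (plus 0.5) of pairs of genes within each library, for the control miRNA (blue) and miR-148a-3p (orange) libraries, with marker shapes for the replicate numbers, lines for the group means and a dotted line at equal counts. SMAD7/SMAD3 has a difference of means of −1.998, SKIL/SKI and TGIF1/TGIF2 separate the groups without overlap, and SMAD3/SMAD2 and TGFBR2/TGFBR1 overlap. TGIF2 is counted here without the reads of TGIF2-RAB5IF, and with them the groups of TGIF1/TGIF2 would overlap.

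The rest of the pathway was read from 6 lists of 135 genes, of which 124 had a read and 95 were tested. With edgeR 0 of the 95 passed over all genes, and 2 had an unadjusted p below 0.05, where 6.79% of all genes did. DESeq2 gave 1 of the 95 (5.01% of all genes) and limma-voom 3 (6.86%), so each share was below that of all genes. Of the 95, 48 were fitted lower and 47 higher, beside 50.5% and 49.5% of all genes tested, and their median was −0.0025. The groups did not overlap for 7 of the 95, 5 lower and 2 higher, a smaller share than the 12.8% of all genes tested (6.59% lower and 6.22% higher).

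Among the ligands 6 of 18 were tested, 3 lower and 3 higher, with a median of −0.01. BMP7, a bone morphogenetic protein, had a log2 fold change of 0.56 (SE 0.37), TGFB1, the founding ligand, 0.65 (SE 0.47), and GDF11, which signals through SMAD2 and SMAD3, −0.43 (SE 0.37). All 3 values moved with single libraries. BMP7 was at 0.35 without control replicate 1 and 0.98 without control replicate 3. TGFB1 was at 0.34 without control replicate 1, 1.16 without control replicate 2 and 0.12 after thinning to the smallest library. GDF11 was at −0.096 without control replicate 1 and −0.67 without control replicate 3. Of the other receptors and co-receptors 6 of 14 were tested, 2 lower and 4 higher, with a median of 0.09. ACVR1B, the activin counterpart of TGFBR1, had −0.76 (SE 0.48), TGFBR3, the co-receptor betaglycan, 0.26 (SE 0.31), and ACVR2A, an activin receptor of type II, −0.31 (SE 0.47). With 1 library left out ACVR1B ran from −1.10 to −0.43 (without miR-148a-3p replicate 1 and 2), TGFBR3 from 0.10 to 0.43 (without control replicate 2 and 3) and ACVR2A from −0.57 to −0.10 (without miR-148a-3p replicate 2 and 3). The other SMADs tested were SMAD5 at −0.29 (SE 0.21) and SMAD1 at −0.27 (SE 0.37), which serve the BMP branch; without control replicate 1 SMAD5 was at −0.095 and SMAD1 at 0.12. The other 2 of the 4 listed were counted but too low to test.

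Of the SMAD regulators 28 of 29 were tested, 19 lower and 9 higher, with a median of −0.09. IPO8, a nuclear import receptor, was lower in all 3 libraries, at 70.5 ± 2.51 CPM after the control and 47.6 ± 7.53 CPM after miR-148a-3p (log2 fold change −0.55, SE 0.26, edgeR adjusted p = 0.725). SMURF2, the ubiquitin ligase that SMAD7 brings to the receptor, had −0.31 (SE 0.18), and RANBP3, which helps SMAD2 and SMAD3 leave the nucleus, 0.54 (SE 0.32). Without control replicate 1 SMURF2 was at −0.084, and without miR-148a-3p replicate 2 RANBP3 was at 0.29. Of the nuclear partners 24 of 30 were tested, 7 lower and 17 higher, with a median of 0.08. SP1, a zinc finger factor that works with SMADs on GC-rich promoters, was lower in all 3 libraries, at 63.9 ± 10.6 and 38.9 ± 6.70 CPM (−0.71, SE 0.28, edgeR adjusted p = 0.626). WWTR1, the coactivator TAZ, had −0.39 (SE 0.21) and ATF3, a stress-induced repressor, −0.57 (SE 0.34). With 1 library left out WWTR1 ran from −0.66 (without miR-148a-3p replicate 1) to −0.19 (without control replicate 1; −0.22 without miR-148a-3p replicate 2). ATF3 was at −0.20 without control replicate 1.

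The target genes of the pathway gave no common direction. Of 40 listed 29 were tested, 15 lower and 14 higher, with a median of −0.03 and a range from −0.45 to 0.61. JUNB, an immediate target that encodes an AP-1 subunit, averaged 76.3 ± 20.5 CPM with the control miRNA, against 103 ± 16.6 CPM, with a log2 fold change of 0.46 (SE 0.24). CCN1, a secreted matrix protein, had 0.37 (SE 0.21), and HMGA2, a chromatin protein, −0.26 (SE 0.16), lower in all 3 libraries. Single libraries moved these values too: JUNB was at 0.27 and CCN1 at 0.22 without control replicate 1, CCN1 at 0.58 without control replicate 3, and without miR-148a-3p replicate 3 CCN1 was at 0.13 and HMGA2 at −0.16. The central 95% of all genes tested lay between −0.758 and 0.767. Outside it lay 4 of the 10 members (SMAD7, TGFBR2, SKIL and SMAD3) and 0 of the 95 list genes, with ACVR1B just inside at −0.756. With 1 library left out TGFBR2 reached −0.22, SKIL −0.57 and SMAD3 0.54, while SMAD7 came no nearer to 0 than −0.95. The edgeR unadjusted p of SMAD7 was still not below 0.05 without control replicate 1 or without miR-148a-3p replicate 2. The members and lists were chosen with earlier results of these data known, so these counts describe them and support nothing further.

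**Figure D5:**
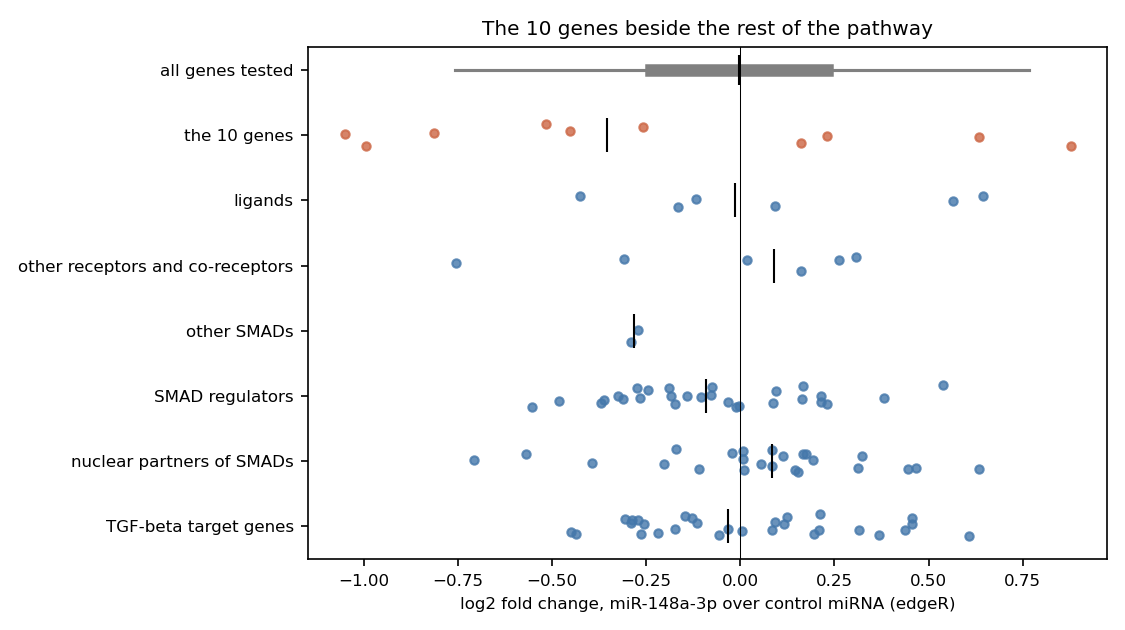
Log2 fold change, miR-148a-3p over control miRNA, for the 10 genes (orange) and the tested genes of 6 pathway lists (blue), with ticks at the medians; the top bar gives all 8921 genes tested (thick line the central 50%, thin line the central 95%). The 10 genes spread from −1.05 to 0.88, and the lists have medians between −0.28 and 0.09.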

How the data were processed

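Each of the 6 mRNA libraries came as whole-number counts by gene symbol, deposited unnormalized, and a symbol absent from a library was taken as 0. The submitters' processing notes name cutadapt, STAR, Bowtie2 and GRCh38. Which program counted the reads, with which gene models, and whether strand was used, is not given in the sources used here. A small RNA library was left aside.

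Counts were fitted with edgeR 4.0.16 in R 4.3.3 (TMM, filterByExpr with a count minimum of 10, quasi-likelihood F test, group as the only term), with Benjamini-Hochberg adjustment over the 8921 genes tested and a threshold of 0.05. Fold changes are on the log2 scale with edgeR's default prior, their SE is the fold change's size over the square root of F, and intervals use the fit's degrees of freedom. The script was tested on simulated counts. DESeq2 1.42.0 (independent filtering off) and limma-voom (limma 3.58.1), other size factors and filters, thinning, a replicate block and each library left out were tried. Promoter and microRNA sequences and gene spans are RefSeq's (GRCh38.p14). List genes were matched by symbol or by a RefSeq synonym.

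The 10 members, the 5 ratios and the lists were chosen with earlier results of these data known. The genes named are the members, the called gene, and the 3 of each list with the smallest p. Nothing in the labels makes the replicates separate cultures. The p-values therefore set the difference between groups against the spread of these libraries within groups, which may be only technical. Pairs within a group differed by 2.52 to 5.30 times Poisson variance.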

Additional observations from a re-analysis of the deposited data

How the results depend on the processing

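Of the 10 members and of the 95 list genes (91 of them tested after thinning), 0 passed in the alternatives run, 14 in number: other size factors, DESeq2, limma-voom, no filter, a filter of 10 counts in 3 libraries, thinning, the replicate block and each library left out. Over all genes the count, 1 with edgeR, was 2 with DESeq2, 3 with limma-voom, 18 without the filter, 3 with the replicate block, 2 after thinning, and 1 to 26 with 1 library left out (26 without control replicate 1, 2 without miR-148a-3p replicate 3). The cause was not tested. The replicate numbers were not treated as pairs, except under the block. Same-numbered libraries correlated at 0.133, 0.093 and −0.0018 in their deviations from the group means. Libraries numbered 1 and 2 but not 3 correlated best with their own number, which does not settle whether the libraries are paired. Under the block SKIL had −0.85 and SMAD7 −1.07.

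The log2 fold changes of SMAD7, SKIL, SMAD3, TGIF1, TGFBR2, SMAD2 and SMAD4 kept their sign in all 14 alternatives. The sign changed for TGFBR1 without control replicate 3 (range −0.083 to 0.47 with 1 library left out), for TGIF2 (range −0.81 to 0.068) and SMAD1 (range −0.46 to 0.12) without control replicate 1, and for SKI after thinning to the smallest library (−0.017). Members with an unadjusted p below 0.05 numbered 2 to 4 with 1 library left out, as given above. The members' adjusted p ran from 0.232 to 0.999 over the alternatives. The 5 ratios kept their sign with pseudocounts of 1 and 5, with any library left out and as differences within replicate numbers, where the smallest exact p is 0.25; the SMAD7/SMAD3 difference lay between −2.27 and −1.65. With 6 to 237 reads per member and library, depth limits the precision of each value.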
